A study of Mus musculus with 6 samples.

Results

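The genes described here are 53 mouse genes that encode the machinery of DNA replication, from the loading of the helicase at origins to the polymerases, the sliding clamp and the enzymes that supply nucleotides. They were chosen by symbol from known function. The rule uses no measured value, but it was written with earlier results of these data known. All 53 were present among the 17463 genes of the deposited tables, none had a count of 0 in any sample, and all 53 were among the 11277 genes that passed the filter on low counts. RNA-seq had been performed on erythroblasts of C57BL/6J mice. TER119-negative cells, that is fetal liver erythroblasts that do not yet carry the late erythroid surface antigen TER119, were purified at embryonic day 14.5 and cultured for 30 h in medium with erythropoietin, without added cholesterol (control, n = 3) or with 40 µM cholesterol (n = 3), and the TER119+ cells were then sorted for RNA. The labels call the control samples untreated, and the study elsewhere calls them vehicle-treated. Both groups share the strain, the tissue, the culture and the sort, and no genetic change is given for either. The samples are bulk RNA from sorted primary cells that complete their differentiation in culture, so that a difference in the stages or cell cycle phases that the cells of a sample had reached and a difference in RNA per cell cannot be told apart. The comparison asks how added cholesterol alters the transcripts of the replication machinery in these cells.

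Replication starts in G1 phase with licensing. The origin recognition complex binds origins and, with Cdc6 and Cdt1, loads the ring of Mcm2 to Mcm7, which stays inactive until the kinases Cdc7-Dbf4 and CDK2-cyclin E act in S phase. Cdc45 and the GINS complex then turn the ring into the active helicase, polymerase alpha-primase lays down primers, and polymerases epsilon and delta extend the leading and the lagging strand while bound to the ring-shaped clamp Pcna, which the Rfc complexes load. Many of these genes are known targets of E2F transcription factors and are transcribed most at the passage from G1 to S phase. In the fetal liver the early erythroblasts divide fast, and S phase is linked to the switch to terminal differentiation.

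The promoters of 3 members that hold an E2F site, the sequence that many of these genes are known to share, and of 1 that does not are printed first. Each is the 250 bases before the RefSeq start in the GRCm38.p6 build of the mouse genome, on the strand of the gene, and the capitals mark an 8-base E2F word. The words searched on both strands were TTTGGCGC, TTTCCCGC, TTTGCCGC and TTTCGCGC, which are spellings of the known E2F site, and overlapping matches were counted separately.
Dtl, chr1:191575545-191575794, − strand: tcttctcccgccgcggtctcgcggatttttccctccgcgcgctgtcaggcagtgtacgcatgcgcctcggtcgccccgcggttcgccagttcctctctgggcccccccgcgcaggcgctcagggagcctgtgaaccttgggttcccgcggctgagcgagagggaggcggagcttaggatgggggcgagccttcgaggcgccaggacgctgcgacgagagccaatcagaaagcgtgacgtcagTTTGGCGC
Mcm6, chr1:128359706-128359955, − strand: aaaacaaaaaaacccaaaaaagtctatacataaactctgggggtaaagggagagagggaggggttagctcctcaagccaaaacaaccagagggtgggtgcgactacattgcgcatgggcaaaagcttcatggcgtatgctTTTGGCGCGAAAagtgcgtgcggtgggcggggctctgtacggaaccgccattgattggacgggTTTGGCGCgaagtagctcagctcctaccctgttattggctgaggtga
Rfc3, chr5:151651209-151651458, − strand: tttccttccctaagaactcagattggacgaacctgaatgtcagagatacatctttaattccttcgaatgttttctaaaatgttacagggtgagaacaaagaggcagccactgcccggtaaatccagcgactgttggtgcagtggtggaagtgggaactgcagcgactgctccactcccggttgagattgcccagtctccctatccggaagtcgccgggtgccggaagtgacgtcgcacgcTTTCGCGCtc
Rrm2, chr12:24708004-24708253, + strand: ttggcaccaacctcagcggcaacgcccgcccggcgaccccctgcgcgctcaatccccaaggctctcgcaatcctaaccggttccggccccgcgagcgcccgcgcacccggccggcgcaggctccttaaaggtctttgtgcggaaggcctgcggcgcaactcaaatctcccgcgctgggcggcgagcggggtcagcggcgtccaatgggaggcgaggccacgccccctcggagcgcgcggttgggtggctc
Dtl is shown because it is 1 of the 4 members called below, Mcm6 because it held the most words, Rfc3 because its log2 fold change was among the highest, and Rrm2 because it had the highest level of all members and held no word. In Dtl the word began 8 bases before the start. In Mcm6 the words began 110, 106 and 47 bases before it, and the first 2 overlap on opposite strands. A match is a description of the letters and not a measured binding site.

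RefSeq windows from 250 bases before to 50 bases after the start were found for 43 of the 53 members. An E2F word was in the window of 16 of these 43 genes (37.2%), against 443 of 9032 tested genes with a window (4.90%) and 2.60% of all RefSeq genes with windows of the same length. Counted by window, the shares were 30.8% of the members' windows and 2.26% of all RefSeq windows. Of 38 other replication genes with a window, 11 held one (28.9%), as did 1 of 16 mitosis genes (6.25%). The mitosis genes instead held the 6-letter CHR element TTTGAA, through which genes of late cell cycle phases are known to be controlled, in 11 of 16 windows (68.75%), against 16.3% of the members and 14.5% of the tested genes. CCAAT boxes were in 60.5% of the members, 87.5% of the mitosis genes and 43.8% of the tested genes. The share of members with an E2F word was thus above that of all tested genes, and their share with a CHR element was close to it.

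**Figure D1:**
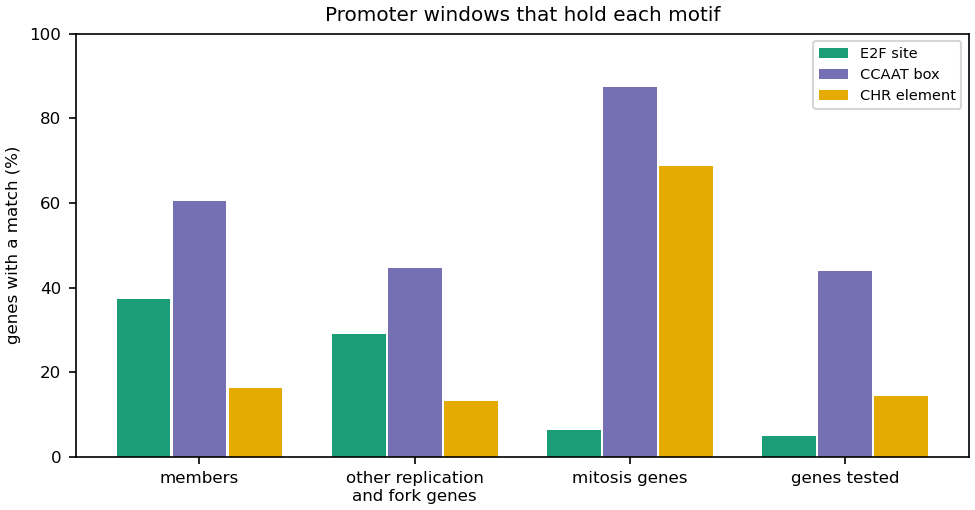
Share of genes (%, vertical axis from 0) whose RefSeq promoter window, 250 bases before to 50 after the start, held an E2F word, a CCAAT box or a CHR element, for the members, other replication and fork genes, mitosis genes and all genes tested. E2F words stood in 37.2% of the members and CHR elements in 68.75% of the mitosis genes.

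Per length, in FPKM (fragments scaled to transcript length and library size), the mean level of the members over the 6 samples spanned 13.1 for Gins3 to 833 for Rrm2, with a median of 54.6. Rrm2, the small subunit of the reductase that makes deoxynucleotides, and the clamp Pcna (676 FPKM) stood well above the others. The 6 Mcm subunits form 1 ring with a copy of each, and their levels were close to each other, between 142 FPKM for Mcm4 and 286 for Mcm7. Several other complexes were less even. Orc4 stood at 16.3 FPKM and Orc6 at 82.2, Gins3 at 13.1 against 52.2 to 54.6 for Gins1, Gins2 and Gins4, and Rfc1 at 29.0 against 91.1 for Rfc2. The catalytic subunit of polymerase epsilon, Pole, was at 16.6 FPKM and its small subunit Pole2 at 37.3. These levels are on the authors' length scale and were not compared by a test.

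**Figure D2:**
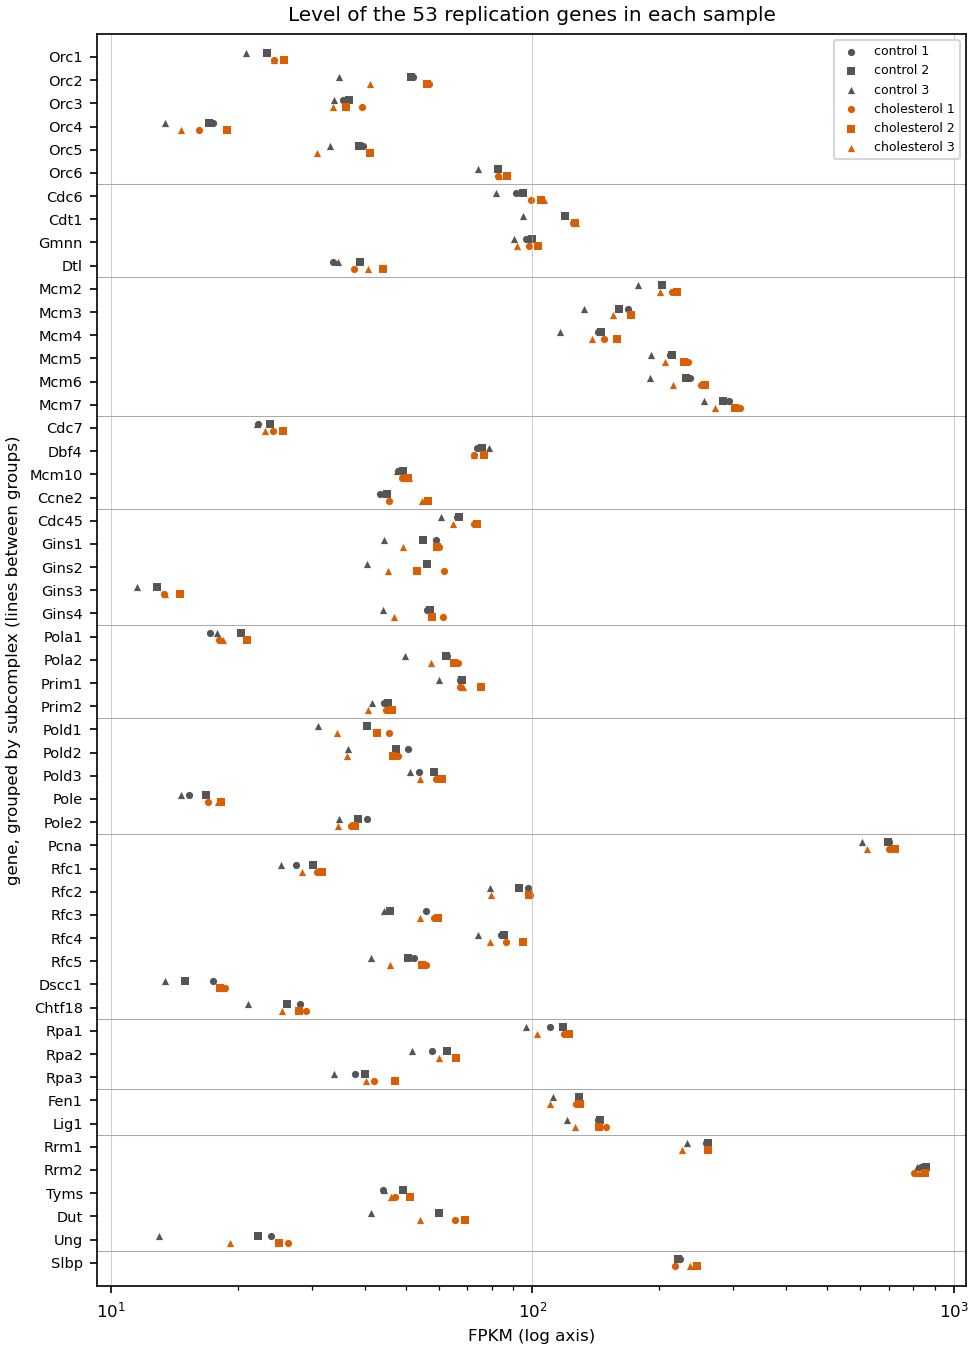
Level of each of the 53 members (rows, grouped by subcomplex) in each of the 6 samples, in FPKM on a log axis, with control samples in grey and cholesterol samples in orange and 1 point per sample. The levels run from 13.1 FPKM on average for Gins3 to 833 for Rrm2, and the points of both groups lie close together in nearly every row.

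The 6 libraries held 19826849 to 20061724 counts, so that 3 counts correspond to about 0.15 CPM (counts scaled to library size) and the members, the lowest of which stood above 20 CPM, were not limited by depth. The erythroid markers were abundant, with a summed level of 156051 to 209001 CPM in the control and 140600 to 186557 CPM in the cholesterol samples. All 12 of them were lower on average with cholesterol, and 11 were lower in all 3 pairs, where 20.1% of all genes were. Their mean log2 differences were −0.18, −0.08 and −0.10 in pairs 1, 2 and 3. With the block edgeR called 4 of them lower, against 5.2% of all genes, and with condition alone 0. Markers of other cells were also read. Granulocyte genes summed to 72.6 to 728 CPM in the control and 44.0 to 303 CPM in the cholesterol samples, and all 10 of them were lower on average with cholesterol, with a median log2 fold change of −1.12. The values for mast cell genes were 1.47 to 18.5 and 0.493 to 2.86 CPM, those for macrophage genes 18.2 to 129 and 14.1 to 60.3 CPM, and those for early progenitor genes 21.5 to 31.1 and 11.5 to 15.6 CPM. Among the hepatocyte genes the sums were 91.6 to 261 and 63.2 to 222 CPM, and among the megakaryocyte genes 62.1 to 76.3 and 58.7 to 66.2 CPM. With the block edgeR called lower 9 of the 10 granulocyte genes, 5 of 8 tested macrophage genes and 3 of 4 early progenitor genes. It also called both tested mast cell genes and 1 of 6 megakaryocyte genes lower, 1 macrophage gene higher and no hepatocyte gene. Of all genes it called 5.2% lower and 1.65% higher. No tested marker was at 0 in every sample. Their part in the differences described here was not tested. Samples with the same replicate number deviated from their group means together, and with the number 3 both the granulocyte genes and the globin genes were highest in each group. All p-values rest on 3 samples a group, and since the labels do not say that these came from separate cultures, they measure the spread between these samples.

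Across the 53 members, 43 were higher and 10 lower on average with cholesterol, where 52.1% of all tested genes were higher. The differences were small. The median log2 fold change was 0.07, with single members between −0.08 for Dbf4 and 0.23 for Dscc1, and the median over all 11277 genes was 0.0064. In the edgeR quasi-likelihood test with condition alone, 0 members passed an adjusted p of 0.05 in either direction, and the lowest adjusted p among them was 0.9998. Of all genes, 0.00887% were called higher and 0% lower by that test. By DESeq2 no member was called either, and of 16509 genes it called 28. At an unadjusted p under 0.05 edgeR gave 1 member higher, Pole, and 0 lower, against 0.718% and 1.92% of all genes.

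With the replicate number as a block, which compares same-numbered samples, edgeR called 4 of the 53 members higher (7.55%) and 0 lower, where it called 1.65% of all genes higher and 5.2% lower. The 4 were Dtl, Ccne2, Pole and Dut. The number called was 6 without the samples numbered 1, 0 without those numbered 2, and 2 without those numbered 3. Of all genes, both directions together, these fits called 821 of 11496, 296 of 11492 and 726 of 11128. Ccne2 was called without number 1 and without number 3, Dut without number 1 alone, and Dtl and Pole in none of these. Within pairs, 28 members (52.8%) were higher in all 3 pairs and 3 were lower in all 3 (Pold2, Rrm1 and Rrm2), against 19.9% and 20.1% of all genes. The groups did not overlap for 6 members that were higher (Orc1, Cdc6, Cdt1, Cdc7, Pole and Rpa3) and for 1 that was lower (Rrm2), against 3.72% and 4.28% of all genes. These orders are of TMM-normalized CPM and changed with the scale. In the deposited FPKM, 40 members were higher and 2 lower (Pold2 and Pole2) in all 3 pairs, against 27.8% and 14.7% of all genes. The groups then did not overlap for 9 members that were higher and 0 that were lower, against 5.1% and 2.94% of all genes, and Cdc7 and Rrm2 were not among these.

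**Figure D3:**
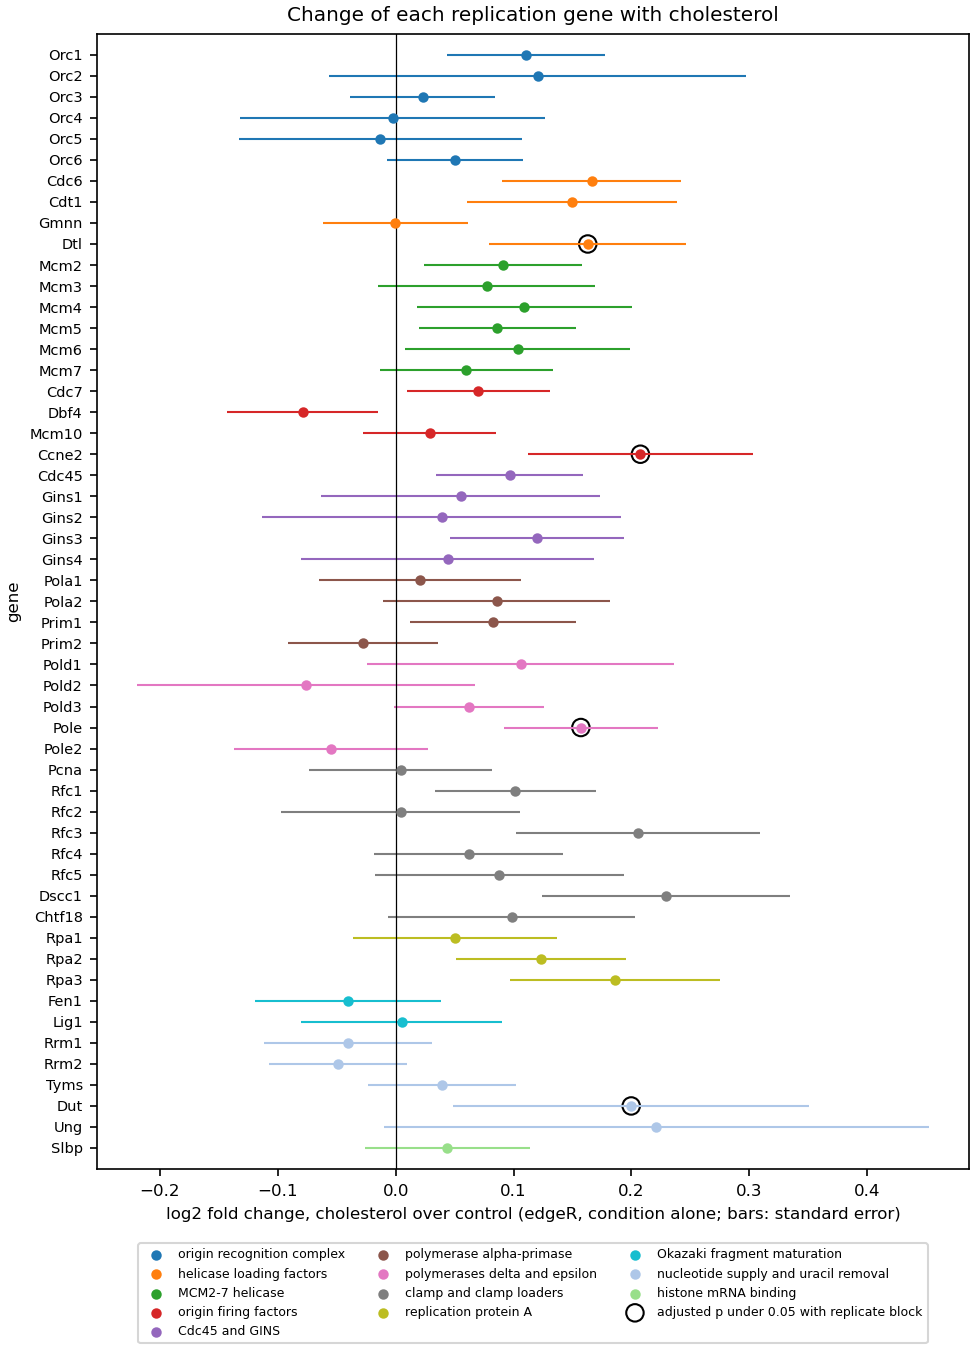
Log2 fold change of each member, cholesterol against control, from edgeR with condition alone, with its standard error as the bar, grouped by subcomplex. Most points lie right of 0, between −0.08 and 0.23, the bars of many reach 0, and circles mark Dtl, Ccne2, Pole and Dut, the 4 called with the replicate block.

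The size of the difference moved with the samples used. The mean log2 CPM of the members was 7.275, 7.24 and 7.09 in control samples 1, 2 and 3 and 7.29, 7.33 and 7.20 in cholesterol samples 1, 2 and 3. Pair by pair this gave differences of 0.01, 0.09 and 0.11, and the SD between the control samples was 0.10. Members that were higher with cholesterol numbered 32 in pair 1 (60.4%), 47 in pair 2 (88.7%) and 43 in pair 3 (81.1%), where 48.9%, 51.4% and 50.2% of all genes were higher in the same pairs. Control sample 3 had the lowest level of 34 of the 53 members, and cholesterol sample 2 the highest of 25. Without control sample 3 the median log2 fold change was 0.02, with 34 members higher and 19 lower. It was 0.05 without cholesterol sample 2, and 0.11 without control sample 1 and without cholesterol sample 3. The globin share of all counts was 14.6%, 13.8% and 17.9% in the control and 12.5%, 13.0% and 16.2% in the cholesterol samples, lower with cholesterol in each pair. With each library scaled by its total alone, 47 members were higher with a median of 0.10, while the median of all genes was 0.04. The part of the globin share in the members' values was not tested.

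**Figure D4:**
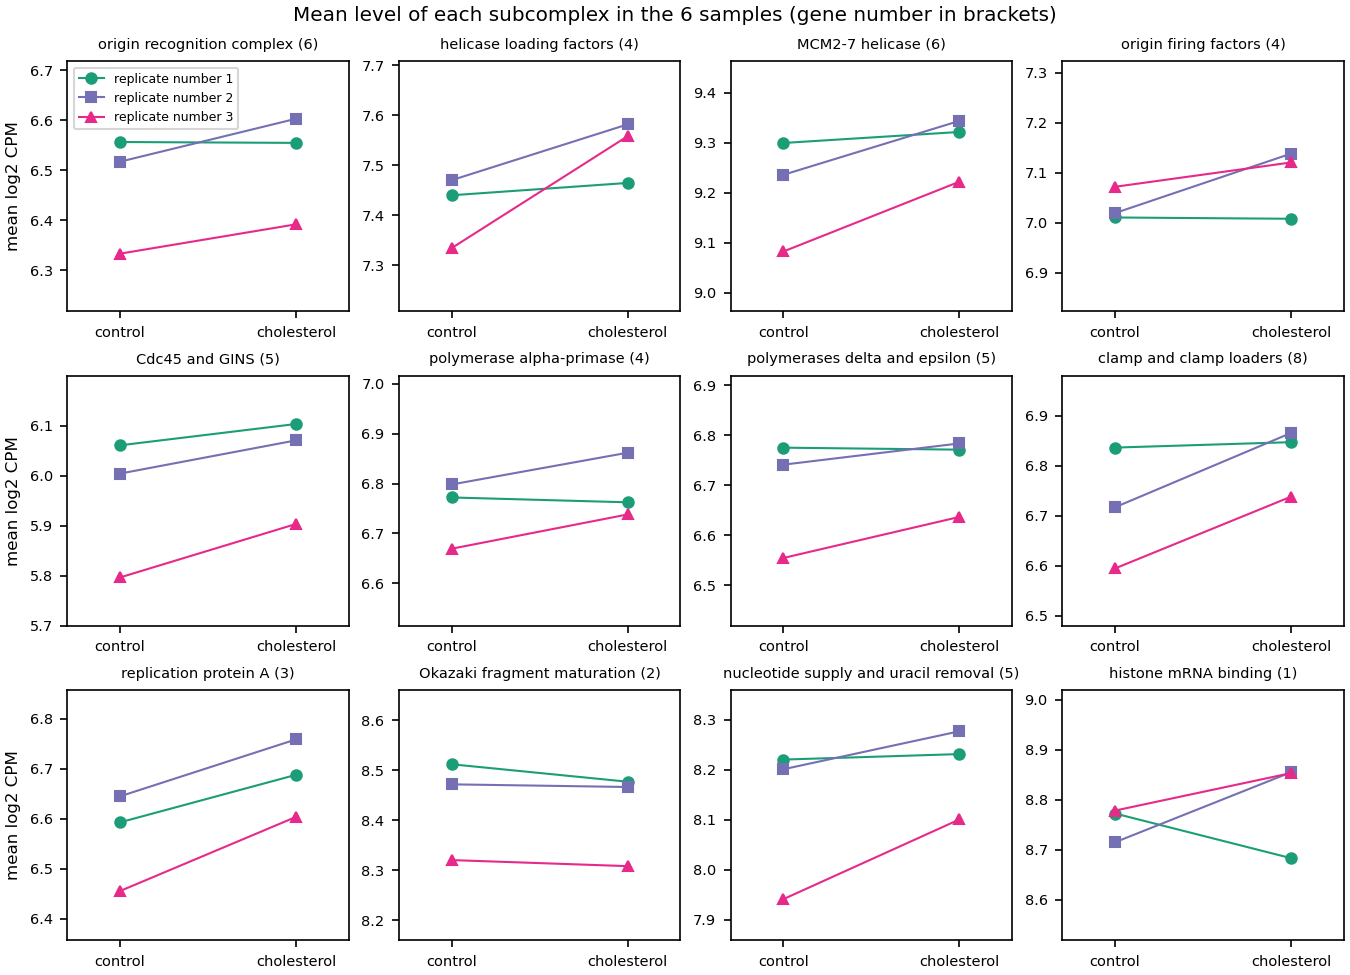
Mean log2 CPM of the members of each subcomplex in the 6 samples, with same-numbered control and cholesterol samples joined by a line; each panel spans 0.5 log2 units and does not start at 0. In pairs 2 and 3 most lines end higher with cholesterol, and in pair 1 they are nearly flat apart from replication protein A, which is higher, and Slbp, which is lower.

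Among the 6 genes of the origin recognition complex, 4 were higher and 2 lower on average, with a median log2 fold change of 0.04, and none was called in either fit. Without control sample 3 the median was −0.0090, while it was 0.02 without cholesterol sample 2, 0.07 without control sample 1 and 0.09 without cholesterol sample 3. Orc1, the subunit whose level is regulated through the cell cycle, measured 75.3, 74.0 and 68.1 CPM in the control and 76.0, 80.2 and 78.5 CPM in the cholesterol samples. The groups did not overlap, but cholesterol sample 1 exceeded control sample 1 by less than 1 CPM. The means of 72.5 ± 3.83 and 78.2 ± 2.07 CPM (SD, n = 3) gave 0.11 (SE 0.07) as the log2 fold change. It was 0.07 without control sample 3, and 0.06 in the blocked fit without both number 3 samples. Orc4 measured 41.7, 40.6 and 33.8 CPM against 37.8, 44.2 and 33.9 CPM, with both number 3 samples low. The interval of its log2 fold change ran from −0.32 to 0.31. Orc2 varied most between numbers, with 128 and 147 CPM in the number 3 samples against 179 to 196 CPM in the others, and 29.8% of its exonic bases overlap Nif3l1 on the other strand.

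Of the 4 genes of helicase loading and its restraint, Cdc6, Cdt1, Gmnn and Dtl, 3 were higher on average and the median log2 fold change was 0.16. It was 0.09 without control sample 3, and 0.06 in the fit with the block without both number 3 samples. The exception was Gmnn, the inhibitor of Cdt1 that prevents a second loading in the same cycle, with 93.8 ± 2.46 CPM in the control and 93.8 ± 4.01 CPM in the cholesterol samples (SD, n = 3). Dtl, an adaptor of the ubiquitin ligase that destroys Cdt1 in S phase, lies on chr1:191537356-191575544 and was called higher with the block. It measured 147, 166 and 155 CPM in the control and 159, 187 and 178 CPM in the cholesterol samples, and was higher in each pair although the groups overlapped. Its log2 fold change was 0.16 (SE 0.08), and with the block 0.16 (SE 0.04, adjusted p = 0.0281 by edgeR). Cdc6, the ATPase that loads the helicase ring with the origin recognition complex, measured 239, 237 and 216 CPM against 239, 265 and 271 CPM. The groups were apart by less than 1 CPM, and pair 1 did not differ beyond that. Its log2 fold change of 0.17 (SE 0.08, 95% interval −0.02 to 0.35) had an adjusted p of 0.0946 with the block in edgeR, and in the blocked fit without both number 3 samples it was 0.08. An E2F word lay 138 bases before the start of a Cdc6 transcript. Cdt1 measured 268, 261 and 220 CPM against 271, 274 and 286 CPM, with control sample 3 lowest. The ratio of Cdt1 to Gmnn, in FPKM, was 1.16 ± 0.093 in the control and 1.29 ± 0.082 in the cholesterol samples (SD, n = 3), and the ratios of the groups overlapped.

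All 6 genes of the Mcm ring were higher on average, 4.24% to 7.87% above the control mean, with a median log2 fold change of 0.09, and none was called in either fit. The median was 0.03 without control sample 3 and 0.14 without control sample 1. Each of the 6 subunits had its lowest value in control sample 3, while the sample with the highest value differed between them, and in pair 1 Mcm3 and Mcm4 were not higher in CPM. Mcm2 measured 708, 688 and 635 CPM in the control and 720, 744 and 699 CPM in the cholesterol samples. Mcm7 measured 721, 676 and 640 CPM against 737, 719 and 667 CPM. Both were higher in every pair, by less than the spread between the control samples in pair 1. Their log2 fold changes were 0.09 (SE 0.07) and 0.06 (SE 0.07), with adjusted p-values of 0.204 and 0.434 with the block in edgeR. Without control sample 3 the log2 fold changes were 0.05 and 0.02. Mcm6, whose promoter is printed above, measured 742, 704 and 613 CPM against 756, 777 and 679 CPM, a log2 fold change of 0.10 (SE 0.10).

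Among the 4 origin firing factors, 3 were higher and 1 lower on average. Ccne2, cyclin E2, the partner of CDK2 at the start of S phase, lies on chr4:11190433-11204779 and was called higher with the block. It measured 121, 122 and 128 CPM in the control and 124, 153 and 153 CPM in the cholesterol samples. Cholesterol samples 2 and 3 were thus above every control sample, and cholesterol sample 1 was within their range. In FPKM the groups did not overlap, with 43.4, 45.1 and 44.9 against 45.8, 56.5 and 54.6. The log2 fold change was 0.21 (SE 0.10, 95% interval −0.02 to 0.44), and with the block 0.20 (SE 0.05, adjusted p = 0.0332 by edgeR). Its counts were non-whole in all 6 samples, so that reads had been shared with another gene, and 17.4% of its exonic bases overlap Ints8 on the other strand. Cdc7, a kinase of the Mcm ring, measured 68.1, 70.1 and 68.7 CPM against 71.1, 75.5 and 70.6 CPM, while its activator Dbf4 measured 186, 185 and 204 CPM against 176, 186 and 182 CPM. The groups did not overlap for Cdc7 in CPM, and for Dbf4 they did. Mcm10, which helps to activate the helicase, had a log2 fold change of 0.03 (SE 0.06).

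Cdc45 and the 4 GINS genes were all higher on average, with log2 fold changes from 0.04 to 0.12 and none called. Their median was 0.06, and it was −0.04 without control sample 3, 0.02 without cholesterol sample 1, 0.09 without control sample 2, 0.12 without control sample 1 and 0.13 without cholesterol sample 3. Gins3, the lowest of all members in FPKM, measured 31.9, 31.1 and 29.3 CPM in the control and 31.9, 35.0 and 33.4 CPM in the cholesterol samples. Pair 1 was level in CPM, and the other pairs were apart by about 4 CPM. The log2 fold change was 0.12 (SE 0.07, adjusted p = 0.313 with the block in edgeR). Cdc45 measured 133, 131 and 127 CPM against 143, 144 and 131 CPM. Gins1, Gins2 and Gins4 differed more between replicate numbers than between groups, with the number 3 samples lowest. On the other strand Gse1 overlaps 67.3% of the exonic bases of Gins2, whose counts were non-whole in all 6 samples. The counting is not stated to use the strand, so that reads of these 2 genes in the overlap cannot be told apart.

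In polymerase alpha-primase, which makes the RNA-DNA primers, 3 of 4 genes were higher on average and none was called. Prim1, the catalytic primase, measured 105, 103 and 96.3 CPM in the control and 102, 114 and 107 CPM in the cholesterol samples, higher in pairs 2 and 3 and in pair 1 lower in CPM but not in FPKM. Its log2 fold change was 0.08 (SE 0.07), or 0.05 without control sample 3 and 0.04 without cholesterol sample 2, and that of Pola1, the polymerase subunit, 0.02 (SE 0.09). Of the 5 genes of polymerases delta and epsilon, 3 were higher and 2 lower on average. Pole, on chr5:110286319-110337468, measured 114, 121 and 111 CPM in the control and 122, 131 and 133 CPM in the cholesterol samples, and the groups did not overlap. It was the one member with an unadjusted p under 0.05 with condition alone, 0.0497 in edgeR, at a log2 fold change of 0.16 (SE 0.07). With the block the value was 0.16 (SE 0.05, adjusted p = 0.0488 by edgeR). Its small subunit Pole2 measured 67.5, 60.8 and 56.4 CPM against 59.0, 60.7 and 58.1 CPM, and its groups overlapped, with a log2 fold change of −0.05 (SE 0.08). The ratio of Pole to Pole2, in FPKM, was 0.377, 0.436 and 0.420 in the control and 0.459, 0.480 and 0.518 in the cholesterol samples. These ratios did not overlap between the groups, and an exact permutation test of 3 against 3 samples cannot give a p below 0.1. The ratio was chosen after the values of both genes were seen and is a description. Pold2, a small subunit of polymerase delta, was lower in every pair, with 83.7, 75.9 and 61.9 CPM against 76.1, 74.1 and 59.9 CPM.

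**Figure D5:**
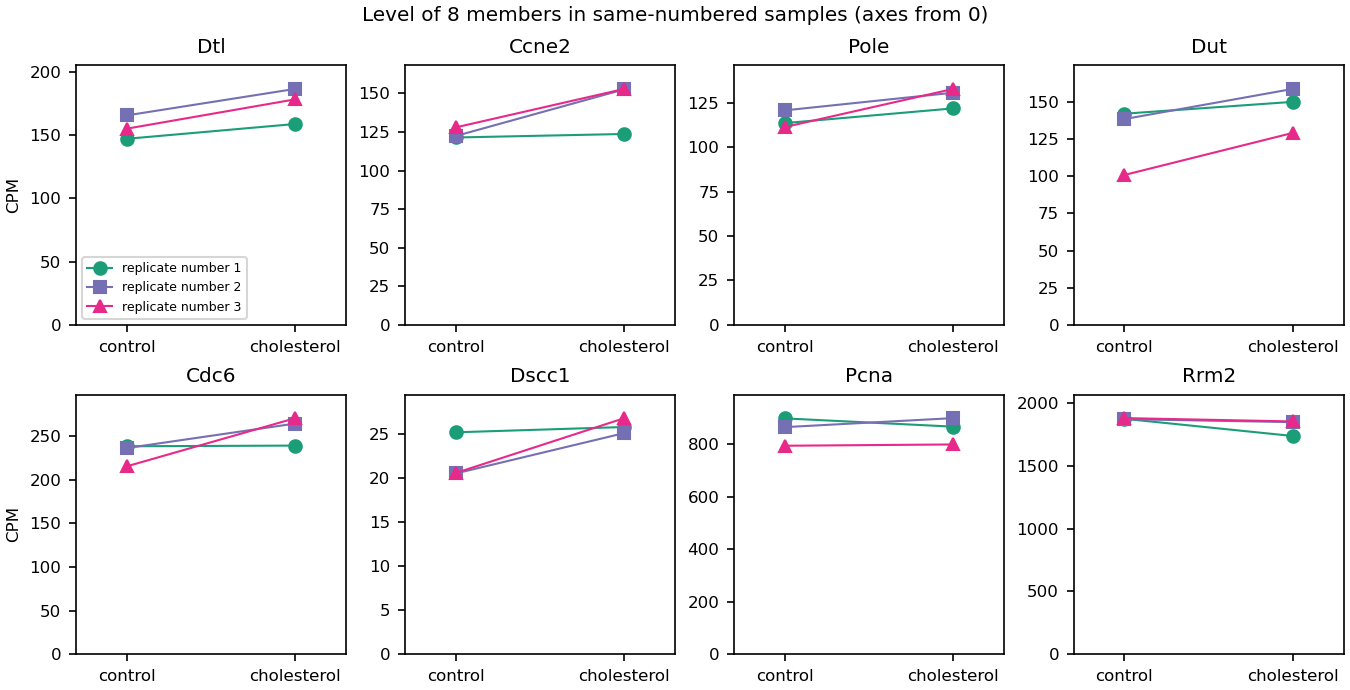
CPM (vertical axes from 0) of Dtl, Ccne2, Pole, Dut, Cdc6, Dscc1, Pcna and Rrm2 in the control and cholesterol samples, with same-numbered samples joined. The lines of the 4 genes called with the block, in the upper row, end higher with cholesterol in each pair, and those of Rrm2 end lower.

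All 8 genes of the clamp and its loaders were higher on average, with a median log2 fold change of 0.09, and none was called. Without control sample 3 the median was 0.01. Pcna itself differed little, with 898, 864 and 794 CPM in the control and 866, 899 and 798 CPM in the cholesterol samples. It was higher in pairs 2 and 3 and in pair 1 lower in CPM but not in FPKM, and the log2 fold change was 0.0044 (SE 0.08, 95% interval −0.18 to 0.19). Dscc1, a subunit of the alternative loader that acts in sister chromatid cohesion, had the highest log2 fold change of the 53, 0.23 (SE 0.10, 95% interval −0.02 to 0.48). It measured 25.2, 20.5 and 20.6 CPM against 25.8, 25.1 and 26.8 CPM, where control sample 1 was within the range of the cholesterol samples. In FPKM it was below them, at 17.4 against 18.1 to 18.7, and the groups did not overlap. Rfc3 measured 69.1, 54.8 and 56.1 CPM against 69.5, 71.3 and 66.7 CPM, with control sample 1 within the range of the cholesterol samples in CPM and in FPKM. Dscc1 and Rfc3 had adjusted p-values of 0.0727 and 0.0685 with the block in edgeR.

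The 3 subunits of replication protein A, which covers single-stranded DNA at the fork, were higher in all 3 pairs, and none was called. Rpa3 measured 23.9, 24.4 and 21.8 CPM in the control and 25.6, 28.7 and 25.4 CPM in the cholesterol samples, without overlap. Its log2 fold change was 0.19 (SE 0.09, adjusted p = 0.110 with the block in edgeR), that of Rpa2 0.12 (SE 0.07) and that of Rpa1 0.05 (SE 0.09). Each of the 3 subunits had its lowest value in control sample 3. Rpa1 measured 347, 361 and 312 CPM in the control and 361, 372 and 322 CPM in the cholesterol samples. The genes of Okazaki fragment maturation showed no common direction. Fen1, the flap nuclease, measured 289, 281 and 257 CPM against 275, 281 and 248 CPM, a log2 fold change of −0.04 (SE 0.08), and Lig1, the ligase, had 0.01 (SE 0.09). An antisense gene overlaps 78.8% of the exonic bases of Fen1, and the counting is not stated to use the strand, so that the reads of these genes cannot be told apart.

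Among the 5 genes of nucleotide supply and uracil removal, 3 were higher and 2 lower in all 3 pairs in CPM. Dut, which removes dUTP so that uracil is not built into DNA, lies on chr2:125247248-125259049 and was called higher with the block. It measured 142, 138 and 101 CPM in the control and 150, 159 and 129 CPM in the cholesterol samples. The number 3 samples were lowest in each group, and without the block the SE was accordingly wide, at 0.15 for a log2 fold change of 0.20. With the block the value was 0.21 (SE 0.05, adjusted p = 0.0192 by edgeR). Without control sample 3 the log2 fold change with condition alone was 0.06, and without both number 3 samples the blocked value was 0.14. Ung, which removes uracil from DNA, had a log2 fold change of 0.22 (SE 0.23) with control sample 3 lowest and the other samples between 37.5 and 49.6 CPM. Both subunits of the ribonucleotide reductase were lower on average in CPM, and neither was called. Rrm2 measured 1874, 1871 and 1879 CPM in the control and 1736, 1847 and 1852 CPM in the cholesterol samples. The SD of the control samples was 4.25 CPM, the groups did not overlap in CPM, and the log2 fold change was −0.05 (SE 0.06, 95% interval −0.19 to 0.09), or −0.02 without cholesterol sample 1. In FPKM the values were 835, 861 and 818 against 803, 853 and 826, so that the groups overlapped and pair 3 was higher with cholesterol. The counts of Rrm2 were non-whole in all 6 samples. Rrm1, the large subunit, measured 1068, 1050 and 989 CPM against 1040, 1045 and 937 CPM, lower in each pair in CPM but not in pair 1 in FPKM, and the ratio of Rrm2 to Rrm1 was 3.35 ± 0.14 and 3.34 ± 0.29 in FPKM (SD, n = 3). Slbp, which binds the stem-loop of replication-dependent histone mRNAs, measured 437, 420 and 439 CPM against 411, 462 and 462 CPM, lower in pair 1 and higher in pairs 2 and 3.

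The 16 members with an E2F word had a median log2 fold change of 0.09, and 15 of them were higher on average and 11 in all 3 pairs. The 27 with a window but no word had a median of 0.06, and 20 were higher on average and 13 in all 3 pairs. The difference between them was not tested. Of the members called with the block, Dtl held a word and Dut did not, and Ccne2 and Pole were not searched.

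Other genes of the same processes gave the background of the pathway. Among 46 other replication and fork genes, 32 were higher and 14 lower on average, with a median log2 fold change of 0.04, and 15 were higher and 5 lower in all 3 pairs, where 19.9% and 20.1% of all genes were. With the block edgeR called 5 of them higher and 0 lower, where it called 1.65% and 5.2% of all genes, and with condition alone none. Without the samples numbered 1 the blocked fit called 1 of them, and 821 of 11496 genes in all. Without those numbered 2 it called 0 of them, and 296 of 11492 genes in all. The 5 were Wdhd1, which links the helicase to polymerase alpha (adjusted p = 0.00838), Atad5, which unloads Pcna (0.0152), Ssrp1 (0.0235) and Asf1a (0.0408), which handle histones at the fork, and Recql4 (0.0463), a helicase of origin firing. Wdhd1 measured 186, 203 and 188 CPM in the control and 210, 232 and 216 CPM in the cholesterol samples, without overlap and with a log2 fold change of 0.19 (SE 0.07). With the block the 5 had log2 fold changes of 0.16 to 0.19, of the size of the called members.

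In the list of 13 E2F factors and pocket proteins none was called, and 9 were higher and 4 lower on average, with a median log2 fold change of 0.09. E2f8, a repressor of the family, measured 530, 544 and 514 CPM in the control and 537, 556 and 626 CPM in the cholesterol samples. E2f5 was low, with 8.64, 6.39 and 7.53 CPM against 6.80, 6.82 and 5.06 CPM, and its groups overlapped. The 20 mitosis genes went the other way, with 1 higher and 19 lower on average, where 52.1% of all genes were higher. Their median was −0.09, and the pair differences were −0.03, −0.08 and −0.19. In all 3 pairs 11 were lower, and the groups did not overlap for 6 that were lower, against 20.1% and 4.28% of all genes. With the block edgeR called 2 of the mitosis genes lower, against 5.2% of all genes. They were Kif20a, a kinesin of cytokinesis (log2 fold change −0.20, adjusted p = 0.00791 by edgeR), and Nusap1, a spindle protein (−0.19, adjusted p = 0.0373). The blocked value of Nusap1 was −0.11 without both number 3 samples. Kif20a measured 292, 278 and 284 CPM in the control and 265, 249 and 229 CPM in the cholesterol samples, without overlap. Cdk1, the mitotic kinase, measured 226, 235 and 253 CPM against 222, 213 and 212 CPM, a log2 fold change of −0.14 (SE 0.07) that was not called in either fit. The difference between the members and the mitosis genes was not tested.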

How the data were processed

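RNA-seq of TER119+ mouse erythroblasts was analysed, with 3 control and 3 cholesterol samples grouped by the sample labels. The authors deposited expected counts per gene, which need not be whole numbers, and a normalized table whose unit is not named. The deposited normalized values were taken as FPKM, since count and value give a constant length per gene (median CV 0.00327 over 6782 genes). The submitters' processing notes name HISAT2 2.0.4, Bowtie2 2.2.5, RSEM 1.2.12 and DESeq2 1.4.5 with GRCm38.p6.

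Expected counts were rounded and tested with edgeR 4.0.16 (R 4.3.3; filterByExpr with at least 10 counts in enough samples and 15 in total, TMM, robust quasi-likelihood test, condition alone), with Benjamini-Hochberg adjustment over 11277 genes; 878 genes were at 0 in every sample. Per-sample values are TMM-normalized CPM. The replicate number of the labels was a block in a further fit. After the group mean was subtracted, samples sharing a number correlated at 0.772, 0.436 and 0.848 for numbers 1, 2 and 3 across genes, which are not independent, so the numbers were taken to pair the samples, although the labels do not say what a number stands for. Number 2 was hardly set apart, since control sample 1 correlated with cholesterol sample 2 at 0.415. Alternatives were DESeq2 1.42.0, RLE factors, other filters, limma 3.58.1 on log2(FPKM + 1) and log2(FPKM + 0.1), leaving out samples, and library totals alone, which was chosen after seeing the data. The scripts were tested on simulated data.

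The members and lists were chosen with earlier results of these data known. Per-sample values are given for the member with the smallest unadjusted p of each subcomplex, members called in either fit or with an unadjusted p under 0.05, and the 3 highest and 3 lowest in mean FPKM. From the other lists they are given for called genes and for the smallest unadjusted p-values. Other members were named after their values were seen, to account for each subcomplex. Positions and promoter windows are from RefSeq (GRCm38.p6), exon overlaps from GENCODE M21. Of the members, 18 had a non-whole count in at least 1 sample, so that reads had been shared with other genes. In 20 members exons overlap another gene, in 17 on the other strand.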

Additional observations from a re-analysis of the deposited data

How the results depend on the processing

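The count of members called higher was 0 with condition alone under each alternative tool, normalization and filter and with each sample left out (0 to 0), 4 with the replicate block, and 0 to 6 when both samples of a number were left out of the blocked fit. Of all genes, 1 to 28 were called with condition alone and 772 of 11277 with the block. Without number 1, 2 or 3 the blocked fit called 821 of 11496, 296 of 11492 and 726 of 11128 genes. Of the other replication genes, 0 were called with condition alone, 5 with the block, and 0 to 5 without a same-numbered pair. The block changed no other call among the named members. The count of members called lower was 0 under every alternative run. The members' median log2 fold change stayed above 0 under all of them, between 0.02 without control sample 3 and 0.11 without control sample 1. Small differences changed sign. Without control sample 3 the median was −0.0090 for the origin recognition complex and −0.04 for Cdc45 and GINS. Without cholesterol sample 2 it was −0.0032 for polymerase alpha-primase and −0.00066 for nucleotide supply. The median of Okazaki fragment maturation, −0.02, was 0.01 with library totals alone and on both FPKM scales, and −0.07 to 0.04 with single samples left out. The log2 fold change of Orc4 was 0.0022 without a filter, 0.050 and 0.053 on log2(FPKM + 1) and log2(FPKM + 0.1), 0.027 with library totals alone, and −0.113 to 0.0862 with single samples left out. That of Pcna was −0.000209 with at least 10 counts in every sample and −0.0436 to 0.0540 with samples left out, that of Fen1 −0.0882 to 0.0159, and that of Slbp −0.0071 to 0.11 without a same-numbered pair under the block. Pole kept its direction throughout, but its unadjusted p under 0.05 was lost with RLE factors, with other filters, and without control sample 3, cholesterol sample 2 or cholesterol sample 3. The cause of these differences was not tested. With 3 samples a group, the median SE of a member's log2 fold change was 0.08 and with the block 0.05, and without the block a difference of the size of the members' median lies within the error of a single gene.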
